A study of Mus musculus with 6 samples.

Results

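Saa3, Lcn2, Hp, Serpina3n, Serpina3g, Steap4, Fgl1, Lbp and Cp are grouped here as acute-phase secreted proteins downstream of the transcription factor STAT3. Control of each gene by STAT3 was not tested. They are 9 of the 18182 genes listed for sorted Lewis lung carcinoma cells, and they were found by their gene symbols. The 9 genes were chosen from their measured levels in the same comparison that is described here, together with what is known of them. Their differences are therefore given as a description without p-values, and calls counted for them below are no test of them. The label of acute-phase secreted proteins fits 7 of the 9 by what is known of the proteins. Steap4 is a membrane enzyme and Serpina3g acts inside cells.

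Lewis lung carcinoma (LLC) is a lung cancer line of C57BL/6 mice, and the cells used carried red fluorescent protein (LLC-RFP). Wild-type C57BL/6 mice received LLC-RFP cells under the skin, either alone (LLC alone, 3 libraries) or together with bone marrow-derived mesenchymal stem cells (LLC with BMSCs, 3 libraries). The study's methods give female mice of 6 weeks of age for the growth of such tumours. Red cells were sorted from the primary tumours by flow cytometry, and their poly-A RNA was sequenced. The labels do not say whether the 3 libraries of a group came from separate tumours or mice, so p-values measure only the spread between these libraries, which may be technical. Both groups share the host strain, the tumour line, the fluorescent protein and the sort. The labels name mesenchymal stem cells as well as LLC cells as the source of the libraries with BMSCs, and the purity of the sorted cells was not given in the sources used here.

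In an acute-phase response, cytokines of the IL-6 family act through the receptor chain gp130 and Janus kinases to activate STAT3, while IL-1 and TNF act through NF-kB, and C/EBP factors join them at the promoters of acute-phase genes. The liver secretes most of these proteins into plasma, but Saa3 and Lcn2 are also made by macrophages, adipocytes and epithelia, and haptoglobin and Lcn2 are stored in granules of neutrophils. Many of the proteins bind iron, haem or microbial lipid, and others block proteases. The RNA levels below do not measure the secreted proteins or the activity of STAT3.

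Cp, Saa3, Lcn2, Hp, Serpina3g and Steap4 were higher in LLC with BMSCs than in LLC alone, Fgl1 was lower, Lbp overlapped between the groups and Serpina3n was at or close to 0 in all 6 libraries. Of the 9 genes, 8 passed the filter on low counts, and 6 of these 8 were higher and 1 was lower at the threshold used for all genes (edgeR's quasi-likelihood test, Benjamini-Hochberg adjusted p under 0.05). At that threshold 62.9% of the 13353 tested genes differed, 31.5% being higher and 31.3% lower in LLC with BMSCs. FPKM values (fragments scaled to transcript length and library total) of the groups did not overlap for 7 of the 8 genes and for 70.6% of all tested genes. Since the 9 genes were chosen on this comparison, nothing is read from these counts. The median log2 fold change was 2.33 over the 8 genes, also with Serpina3g set to its bound, and 0.01 over all tested genes. For scale, 125 tested genes had a higher log2 fold change than Hp, 418 than Saa3, 500 than Lcn2 and 525 than Cp.

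Promoter sequence is not part of the measured levels that chose the genes. What is known of the genes also entered the choice and can include such motifs, so the shares below are a description only. RefSeq promoter windows on build GRCm38.p6, from 250 bases before to 50 bases after a start site, were held for 6 of the 9 genes, with 7 windows in all. Hp, Fgl1 and Lbp had no window in the table. The windows were searched on both strands for the STAT motif TTCNNNGAA, the C/EBP motif TTGCNNAA and the NF-kB consensus. The 250 bases before the start are printed for Steap4 and Serpina3g, which hold STAT motifs, and for Saa3 and Lcn2, the most abundant genes here after Cp. Capitals mark the STAT and C/EBP matches. The Steap4 stretch is chr5:7960222-7960471 on the plus strand, that of Serpina3g chr12:104235897-104236146 on the plus strand, that of Saa3 chr7:46715677-46715926 on the minus strand and that of Lcn2 chr2:32387740-32387989 on the minus strand.
Steap4: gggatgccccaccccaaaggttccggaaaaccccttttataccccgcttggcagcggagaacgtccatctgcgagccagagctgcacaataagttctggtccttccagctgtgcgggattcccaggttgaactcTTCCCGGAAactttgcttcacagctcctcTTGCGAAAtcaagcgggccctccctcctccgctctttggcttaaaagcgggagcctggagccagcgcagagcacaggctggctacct
Serpina3g: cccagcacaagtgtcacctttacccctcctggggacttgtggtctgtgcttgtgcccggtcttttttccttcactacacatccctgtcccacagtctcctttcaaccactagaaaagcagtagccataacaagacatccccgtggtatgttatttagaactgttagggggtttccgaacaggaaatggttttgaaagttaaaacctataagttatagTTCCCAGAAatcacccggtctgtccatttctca
Saa3: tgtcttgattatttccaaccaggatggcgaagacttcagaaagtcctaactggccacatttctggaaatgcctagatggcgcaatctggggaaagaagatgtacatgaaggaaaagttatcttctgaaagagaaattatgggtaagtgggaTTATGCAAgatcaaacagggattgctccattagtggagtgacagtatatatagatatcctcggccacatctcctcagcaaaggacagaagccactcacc
Lcn2: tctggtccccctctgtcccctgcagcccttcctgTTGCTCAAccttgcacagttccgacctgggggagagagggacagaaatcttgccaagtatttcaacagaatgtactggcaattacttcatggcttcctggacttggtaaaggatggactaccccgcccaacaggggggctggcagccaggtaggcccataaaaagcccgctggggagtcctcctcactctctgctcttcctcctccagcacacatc

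The STAT motif was present in 2 of the 7 windows, those of 2 of the 6 genes, and in 8.30% of all 32851 windows of the table. It lay from base -116 to -108 before the Steap4 start and from -33 to -25 before the Serpina3g start. The C/EBP motif was present in 4 of the 7 windows, for 4 of the 6 genes, and in 10.8% of all windows. It stood at -99 to -92 in Saa3, at -216 to -209 in Lcn2, at -87 to -80 in Steap4, and at -70 to -63 in the second of the 2 Cp windows. The NF-kB consensus was present in 2 of the 7 windows, against 8.46% of all windows. These were Steap4, at -250 to -241 and -226 to -217, and Serpina3g, at -85 to -76. Steap4 was thus the gene that held all 3 motifs, and Serpina3n held none of them in its window. These matches describe letters in short windows and do not show that a factor binds there. No match says only that the letters are not in the window.

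**Figure D1:**
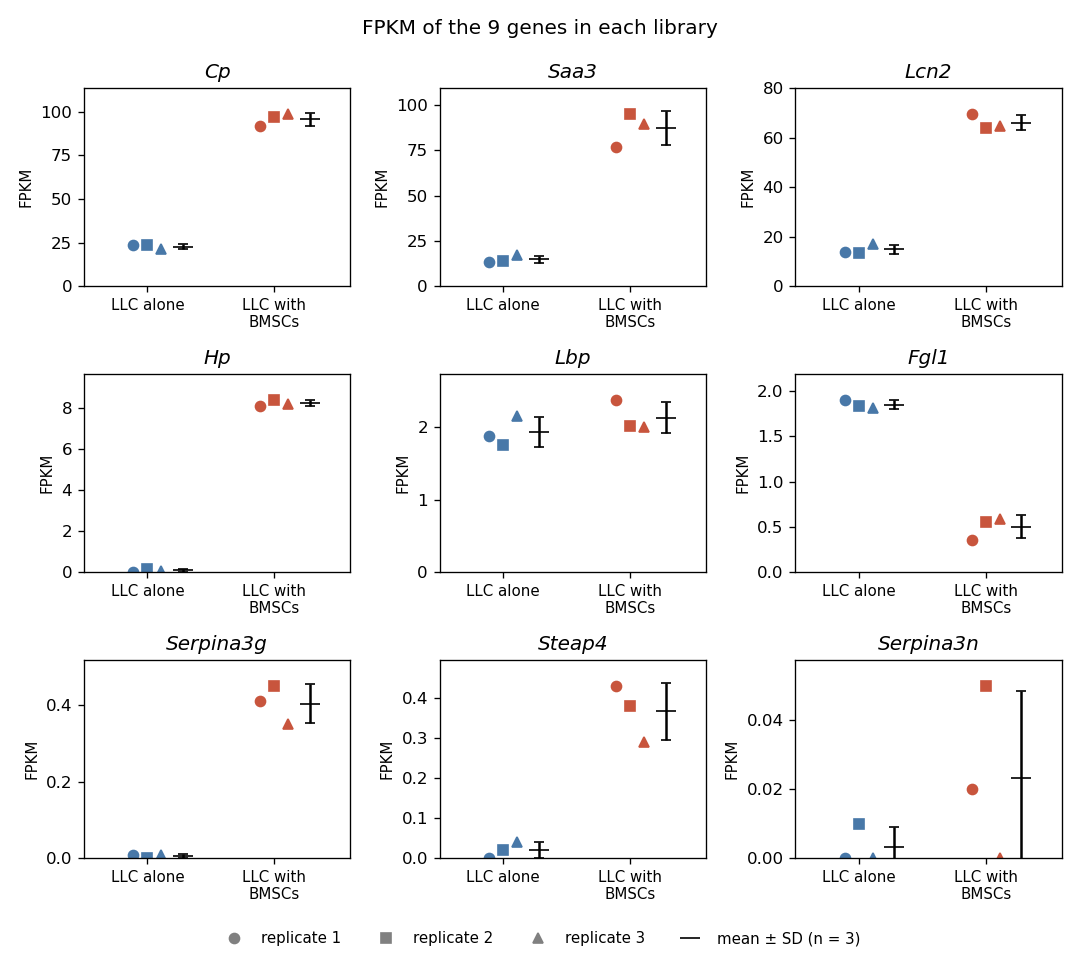
FPKM (fragments scaled to transcript length and library total) of each gene in each library, on linear axes from 0 that differ between panels. Symbols stand for replicates, and the black bar is the mean ± SD of the 3 libraries of a group. The groups lie apart for Cp, Saa3, Lcn2, Hp, Fgl1, Serpina3g and Steap4 and overlap for Lbp and Serpina3n.

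Iron and haem handling is the role of Cp, Lcn2, Hp and Steap4. Ceruloplasmin, encoded by Cp, is a copper-carrying ferroxidase that oxidises iron as it leaves cells. It was the most abundant of the 9 genes per length. Cp stood at 23.65, 23.61 and 21.10 FPKM in LLC alone replicates 1 to 3 and at 91.57, 96.83 and 98.75 FPKM in LLC with BMSCs replicates 1 to 3. Every library with BMSCs lay above every library of LLC alone. The group means were 22.8 ± 1.46 and 95.7 ± 3.72 FPKM (SD, n = 3), a log2 fold change in normalized counts of 2.02 (SE 0.069), or 4.07-fold. Among the 13353 tested genes ordered by mean FPKM, Cp went from place 3686 in LLC alone to place 786 in LLC with BMSCs.

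Lipocalin 2, encoded by Lcn2, captures bacterial siderophores and so withholds iron from microbes. Its level was 13.99, 13.62 and 17.05 FPKM in LLC alone and 69.63, 63.92 and 64.72 FPKM in LLC with BMSCs, in the order of the replicates. The groups did not overlap, and LLC alone replicate 3 was the highest library of its group. The means of 14.9 ± 1.88 and 66.1 ± 3.09 FPKM (SD, n = 3) went with a log2 fold change of 2.13 (SE 0.098) in normalized counts, or 4.36-fold. Its place by mean FPKM was 4987 in LLC alone and 1229 in LLC with BMSCs.

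Haptoglobin, encoded by Hp, binds haemoglobin freed from red cells. Hp was near the limit of detection in LLC alone, with estimated counts of 2, 7 and 5, or 0.03, 0.16 and 0.08 FPKM. With BMSCs the estimated counts were 468, 478 and 465, or 8.11, 8.39 and 8.21 FPKM. This was the largest fitted difference among the 9 genes, with a log2 fold change of 6.52 (SE 0.24), or 91.6-fold. The ratio of the summed counts, 14 in LLC alone to 1411 with BMSCs, was 95.6 after scaling to the library totals, with an exact 95% interval from 56.8 to 175 that covers counting error only. The 3 libraries with BMSCs were closely alike. Their coefficient of variation was 1.34%, against 4.61% from the counting of 470.3 fragments alone.

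Steap4 encodes a metalloreductase of membranes that reduces ferric iron and copper for uptake. Its estimated counts were 0, 2 and 5 in LLC alone and 59, 51 and 39 in LLC with BMSCs, which corresponded to 0, 0.02 and 0.04 and to 0.43, 0.38 and 0.29 FPKM. The groups lay apart at a low level. The log2 fold change was 4.25 (SE 0.50), or 19.0-fold, and the ratio of the summed counts was 20.2 with an exact 95% interval from 9.56 to 51.1. Without LLC alone replicate 3, which held 5 of the 7 counts of its group, the log2 fold change was 5.31, and without LLC alone replicate 1, which held none of them, it was 3.62.

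Saa3 and Lbp encode proteins that bind lipids. Serum amyloid A3 is an apolipoprotein of high-density lipoprotein made outside the liver in inflamed tissue. Saa3 stood at 13.44, 14.00 and 17.03 FPKM in LLC alone and at 76.81, 94.99 and 89.65 FPKM in LLC with BMSCs. The lowest library with BMSCs was replicate 1, and it still lay above all of LLC alone. The means were 14.8 ± 1.93 and 87.2 ± 9.34 FPKM (SD, n = 3), with a log2 fold change of 2.53 (SE 0.12), or 5.77-fold. By mean FPKM it went from place 5003 to place 884 of the tested genes. The ratio of Saa3 to Lcn2 FPKM was 0.961, 1.03 and 0.999 in LLC alone and 1.10, 1.49 and 1.39 in LLC with BMSCs, so it was above the range of LLC alone in each library with BMSCs.

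The lipopolysaccharide-binding protein, encoded by Lbp, hands bacterial lipid to CD14 and to the TLR4 receptor. Lbp was at 1.88, 1.76 and 2.16 FPKM in LLC alone and at 2.38, 2.02 and 2.01 FPKM in LLC with BMSCs. These ranges overlap, since LLC alone replicate 3 lies above replicates 2 and 3 with BMSCs. The means were 1.93 ± 0.205 and 2.14 ± 0.211 FPKM (SD, n = 3), and the log2 fold change of 0.12 was as large as its SE of 0.12. Normalized counts were 206 ± 22.6 and 225 ± 23.2.

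Serpina3g and Serpina3n belong to a cluster of serine protease inhibitors that share much of their sequence, and Serpina3g is known to inhibit cathepsins B and L while Serpina3n inhibits cathepsin G and granzyme B. Serpina3g had estimated counts of 1, 0 and 1 in LLC alone and of 36, 39 and 30.25 in LLC with BMSCs. All libraries of LLC alone were thus under the floor of 3 counts per library, and against that floor Serpina3g was at least 10.7-fold higher with BMSCs. Its level there was 0.403 ± 0.0503 FPKM (SD, n = 3). Serpina3n had counts of 0, 1 and 0 in LLC alone and of 2, 4 and 0 with BMSCs, or at most 0.05 FPKM, and no fold is given. It did not pass the filter on low counts.

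Reads of the near-identical members of this cluster can be divided among them by the counting, and Serpina3g and Cp were the 2 genes of the 9 with a count that was not whole in some library. In LLC with BMSCs replicate 3 the counts of Serpina3g, Serpina3f and Serpina3i were 30.25, 7.22 and 7.53, which sum to 45.00. The sums of the 3 genes were 54.0, 51.0 and 45.0 in LLC with BMSCs and 1.0, 1.0 and 3.0 in LLC alone, so the difference does not rest on how the reads were divided among these 3. Other genes of the cluster were at few counts as well. Serpina3f had 0, 1 and 0 counts in LLC alone and 15, 9 and 7.22 with BMSCs, Serpina3i had 0, 0 and 2 and then 3, 3 and 7.53, Serpina3b had 0 and then 4, 2 and 2, and Serpina3c had 0, 1 and 1 and then 1, 0 and 0. Serpina3a, Serpina3h, Serpina3j, Serpina3k and Serpina3m were not in the files used here.

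Fgl1, or fibrinogen-like 1, is a secreted protein known as a hepatocyte mitogen and as a ligand of the T cell receptor LAG3. It was the gene of the 9 that was lower with BMSCs, at 1.90, 1.83 and 1.81 FPKM in LLC alone and 0.36, 0.56 and 0.59 FPKM in LLC with BMSCs. The groups lay well apart, with means of 1.85 ± 0.0473 and 0.503 ± 0.125 FPKM (SD, n = 3). The log2 fold change was -1.89 (SE 0.19), or 3.71-fold lower with BMSCs. In the transcript files almost all of this signal lay on a transcript that the authors' pipeline assembled, and the RefSeq transcript NM_145594 was listed above 0 in LLC with BMSCs replicate 3 alone, at 0.08 FPKM. The values of Fgl1 therefore describe that assembled transcript rather than the annotated one.

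**Figure D2:**
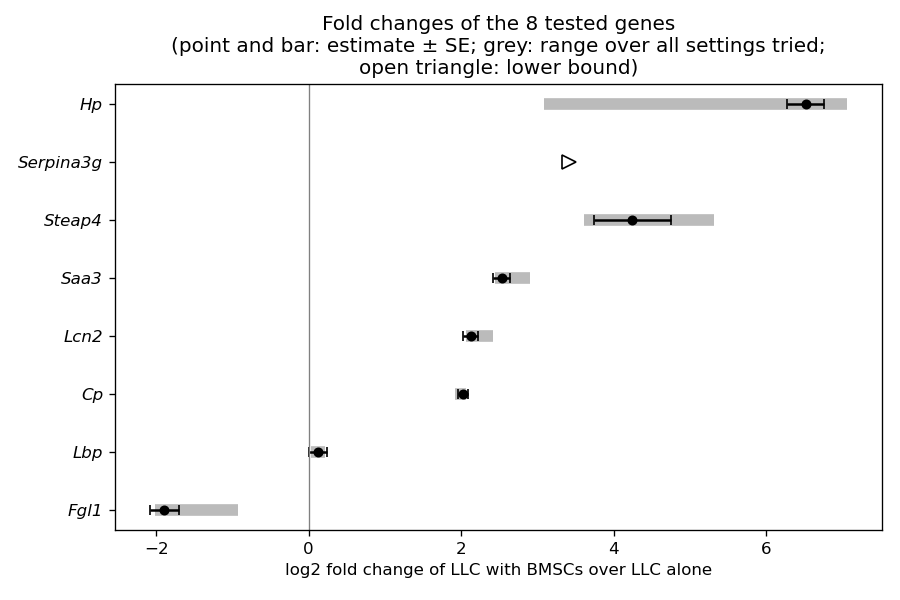
Log2 fold change of LLC with BMSCs over LLC alone for the 8 genes that passed the filter on low counts, with positive values higher with BMSCs. Points and bars are the edgeR estimate ± SE, grey bands span all settings tried, and the open triangle is the lower bound of Serpina3g. Hp has the widest band, from 3.08 to 7.06, and Cp the narrowest, from 1.91 to 2.07.

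Taking the 9 genes as a sum per length, they reached 54.9, 55.0 and 59.3 FPKM in LLC alone and 250, 268 and 265 FPKM in LLC with BMSCs. Cp, Saa3 and Lcn2 made up 93.0% to 93.1% of that sum in LLC alone and 95.3% to 95.7% with BMSCs, so the sum is a measure of these 3 genes. Within the sum the share of Cp was 43.1%, 42.9% and 35.6% in LLC alone and 36.7%, 36.2% and 37.3% with BMSCs. LLC alone replicate 3 was the library with the highest Saa3 and Lcn2 and the lowest Cp of its group. Saa3 and Lcn2 have short transcripts, of 531 and 853 bases, while Cp has a mean length of 4195 bases. In that replicate, log2 CPM minus the group mean was 0.21 for Saa3, 0.21 for Lcn2 and -0.11 for Cp. It was -0.02 for Fgl1 (1197 bases), 0.03 for Hp (1365 bases) and 0.19 for Serpina3g (2030 bases). For Lbp (2528 bases) and Steap4 (3140 bases) it was 0.17 and 0.77. A part of transcript length in these deviations was not tested. With the trend of each library over gene length removed, the log2 fold changes were 2.90 for Saa3, 2.42 for Lcn2 and 1.91 for Cp.

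Cp was the gene of the 9 with several transcripts at a level that allowed a comparison of their shares, a measure that did not enter the choice of the genes. Ceruloplasmin is known to be made as a secreted protein and as a form anchored to the cell surface by splicing near the end of its RNA. NM_007752 has 19 exons and encodes 1061 residues in the GENCODE M21 annotation, and NM_001276248 and NM_001276250 have 20 exons and encode 1085 residues. The share of NM_007752 in the FPKM of Cp was 59.0%, 55.5% and 61.9% in LLC alone and 69.8%, 69.8% and 69.4% in LLC with BMSCs. Its share was thus higher in every library with BMSCs, by 10.8 percentage points between the means of 58.8 ± 3.19% and 69.6 ± 0.22% (SD, n = 3). An exact two-sided permutation test gave p = 0.1, the smallest that 3 against 3 libraries allow. The difference was between 9.16 and 12.4 percentage points when each library was left out in turn.

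All transcripts of Cp had higher mean FPKM with BMSCs, by different factors, which are given without a test. NM_007752 went from 13.4 ± 0.509 to 66.7 ± 2.47 FPKM (SD, n = 3), or 4.98-fold. NM_001276248 went from 4.99 ± 0.891 to 14.3 ± 0.426 FPKM, or 2.86-fold, and NM_001276250 from 4.04 ± 0.455 to 12.9 ± 0.935 FPKM, or 3.20-fold. A further transcript that the authors' pipeline assembled held 1.65% and 1.94% of the FPKM in the groups. Assignment of reads among transcripts that share most exons is an estimate, since 17 of the 19 coding exons of NM_007752 are identical in the other RefSeq transcripts.

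**Figure D3:**
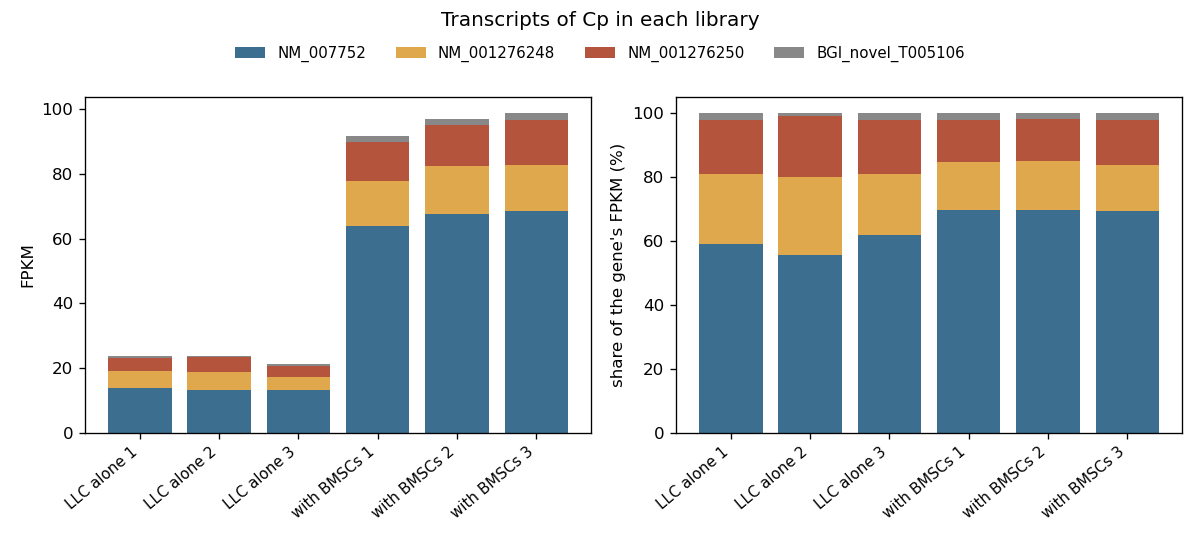
FPKM (left) and share of the FPKM of Cp in percent (right) of its 4 transcripts in each of the 6 libraries, as stacked bars from 0. NM_007752 takes 55.5% to 61.9% in LLC alone and 69.4% to 69.8% in LLC with BMSCs.

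Among the tested genes with a pattern most like that of Cp, the member with the highest mean FPKM, were Fstl1, Depdc1a, Fam111a and Gja1, with Pearson's r of log2 CPM (counts scaled to library size) over the 6 libraries from 0.99959 to 0.99979. These 6 points fall into 2 groups that lie far apart, and 714 genes had an r over 0.99, so the order among them says little. The genes are named by rule and no test is given.

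The lists of genes below were drawn up with earlier results of these data known. Their counts, medians and adjusted p-values are therefore a description and no test of a list. Other positive acute-phase genes were counted from a list of 30, of which 23 were in the files and 10 passed the filter. Of these 10, 6 rose and 2 fell, beside 31.5% and 31.3% of all tested genes, and their median log2 fold change was 1.73 beside 0.01 for all tested genes. The medians of this list and of the lists of cytokines, receptors, factors, targets, partners and metal handling did not change when genes at the floor were set to their bounds. Complement factor B (Cfb) rose from 0.223 ± 0.0208 to 1.97 ± 0.0681 FPKM (SD, n = 3; log2 fold change 3.11, SE 0.12; edgeR adjusted p = 1.04e-06). Il1rn, the antagonist of the IL-1 receptor, rose from 0.367 ± 0.0751 to 3.12 ± 0.0322 FPKM (log2 fold change 3.06, edgeR adjusted p = 2.58e-06). Complement C3 also rose, by 2.46 on the log2 scale (edgeR adjusted p = 1.53e-06). Haemopexin (Hpx), which binds haem, fell by 1.68 and angiotensinogen (Agt) by 1.66 on the log2 scale, while Timp1 and Cd14 did not pass the test (log2 fold changes 0.18 and 0.07).

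The serum amyloid genes of the liver were not detectable as Saa3 was. Saa1 had 0, 1 and 0 counts in LLC alone and 7, 1 and 1 in LLC with BMSCs, Saa2 had 0 in LLC alone and 0, 2 and 1 with BMSCs, and Saa4 had 0 and then 0, 1 and 0. Saa3 in contrast had 285, 215 and 361 counts in LLC alone and 1577, 1918 and 1795 with BMSCs. Of 9 negative acute-phase genes, whose products fall in plasma during inflammation, 7 were in the files and 1 was tested. This was Rbp4, the plasma carrier of retinol, which rose by 0.40 on the log2 scale (SE 0.13, edgeR adjusted p = 0.0255). Leaving out LLC alone replicate 1 or 2 or LLC with BMSCs replicate 2 or 3 took Rbp4 over the threshold, with edgeR adjusted p from 0.0543 to 0.0937.

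Of 14 cytokines that induce acute-phase genes, 11 were tested. Of these 11, 5 rose and 3 fell (median log2 fold change 0.39), beside 31.5% and 31.3% of all tested genes. Il1b, Il1a and Tnf, the cytokines that act through NF-kB, were at or under 3 counts in each library of LLC alone and reached 10.98 ± 0.423, 5.24 ± 0.236 and 1.25 ± 0.183 FPKM (SD, n = 3) with BMSCs. Against the floor of 3 counts per library they were at least 189-fold, 134-fold and 26.5-fold higher (edgeR adjusted p = 1.25e-07, 1.06e-07 and 1.75e-05). Csf3, the growth factor of granulocytes, rose from 0.0467 ± 0.0252 to 2.97 ± 0.443 FPKM (log2 fold change 6.02, SE 0.30; edgeR adjusted p = 3.24e-06). Members of the IL-6 family went both ways. Il6 itself fell from 9.09 ± 1.06 to 4.37 ± 0.15 FPKM (log2 fold change -1.08, SE 0.11; edgeR adjusted p = 9.11e-05), and Il11 and Ctf1 fell too (log2 fold changes -1.25 and -0.66), while Lif rose by 1.81 on the log2 scale (edgeR adjusted p = 4.14e-06).

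Of 15 receptor genes for these cytokines 13 were tested. Of these 13, 7 rose and 1 fell (median log2 fold change 0.53), beside 31.5% and 31.3% of all tested genes. The oncostatin M receptor Osmr rose from 1.51 ± 0.18 to 6.27 ± 0.389 FPKM (SD, n = 3; log2 fold change 2.04, SE 0.099; edgeR adjusted p = 2.74e-06). Il6st, which encodes gp130, rose by 0.78 on the log2 scale (SE 0.18, edgeR adjusted p = 0.00573). For IL-1, the receptor gene Il1r1 rose by 0.76 and its partner Il1rap by 1.43 on the log2 scale (edgeR adjusted p = 0.000101 and 3.09e-06). Il11ra1 fell (log2 fold change -0.65), and Il6ra did not pass the test (log2 fold change 0.33, edgeR adjusted p = 0.0695).

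Of 15 transcription factor and kinase genes of these pathways 13 were tested. Of these 13, 8 rose and 2 fell (median log2 fold change 0.45), beside 31.5% and 31.3% of all tested genes. Stat3 RNA rose from 11.3 ± 0.842 to 26.8 ± 0.819 FPKM (SD, n = 3; log2 fold change 1.22, SE 0.070; edgeR adjusted p = 5.88e-06). The NF-kB subunits Nfkb2, Relb and Nfkb1 rose by 1.53, 1.19 and 1.13 on the log2 scale (edgeR adjusted p = 8.96e-06, 3.42e-06 and 9.4e-06). Cebpd, a C/EBP factor, and Nfkbiz, a nuclear partner of NF-kB, fell (log2 fold changes -0.60 and -0.64). Cebpb did not pass the test, with a log2 fold change of -0.17 (edgeR adjusted p = 0.264).

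All 20 other genes known as targets of STAT3 were tested. Of these 20, 10 rose and 8 fell (median log2 fold change 0.24), beside 31.5% and 31.3% of all tested genes. Socs3, the feedback inhibitor that STAT3 induces, rose from 7.53 ± 0.461 to 31.5 ± 1.6 FPKM (SD, n = 3; log2 fold change 2.04, SE 0.074; edgeR adjusted p = 6.64e-07). The protease Mmp9, the mucin Muc1, the NF-kB cofactor Bcl3 and the AP-1 subunit Fos rose by 5.12, 2.86, 2.79 and 2.15 on the log2 scale (edgeR adjusted p = 2.43e-07, 4.8e-06, 1.84e-06 and 1.29e-05). Myc, which codes for a growth regulator, had the largest fall in the list, with a log2 fold change of -1.22 (edgeR adjusted p = 4.8e-06). The count of 8 lower genes was 4 without LLC with BMSCs replicate 2 or replicate 3 and 5 without LLC alone replicate 1.

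Receptors and protein partners of the 9 products were counted as well, with 10 of 15 tested. Of these 10, 6 rose and 4 fell (median log2 fold change 0.66), beside 31.5% and 31.3% of all tested genes. For the products of Lbp and Saa3, Tlr2 rose by 0.83 on the log2 scale while Tlr4 and its co-receptor Ly96 fell (log2 fold changes -0.81 and -0.82; edgeR adjusted p = 0.000224, 0.000189 and 0.00209). Scarb1, Ager and Fpr2, further receptors of serum amyloid A in the list, rose by 0.61, 1.46 and 3.28 (edgeR adjusted p = 7.77e-05, 0.0003 and 0.000952). Fpr2 was at 6, 1 and 1 counts in LLC alone. Cathepsin B (Ctsb), a target of Serpina3g, fell by 0.73 on the log2 scale (edgeR adjusted p = 2.54e-05). Slc22a17, Cd163 and Lag3, which encode receptors for lipocalin 2, for haptoglobin bound to haemoglobin and for Fgl1, did not pass the filter on low counts. Lrp2, which encodes another receptor for lipocalin 2, was tested. It rose from 0.54 ± 0.191 to 0.893 ± 0.0503 FPKM (SD, n = 3; log2 fold change 0.715, SE 0.235; edgeR adjusted p = 0.029).

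Of 18 other genes of iron and copper handling 15 were tested. Of these 15, 5 rose and 7 fell (median log2 fold change 0.00), beside 31.5% and 31.3% of all tested genes. The iron importer Slc11a2 rose by 1.02 on the log2 scale (edgeR adjusted p = 4.8e-06). The relatives of Steap4 in the list went both ways. Steap1 fell from 150 to 76.1 FPKM, and its log2 fold change was -1.0 (edgeR adjusted p = 5.09e-05). Steap3 fell as well (log2 fold change -0.55, edgeR adjusted p = 0.00137), while Steap2 rose (log2 fold change 0.55, edgeR adjusted p = 0.000467). Ferritin light chain (Ftl1) and the iron regulator Hfe also fell (log2 fold changes -0.92 and -0.61). Ferritin heavy chain (Fth1) in contrast rose from 2313 to 2955 FPKM (log2 fold change 0.33, edgeR adjusted p = 0.016).

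**Figure D4:**
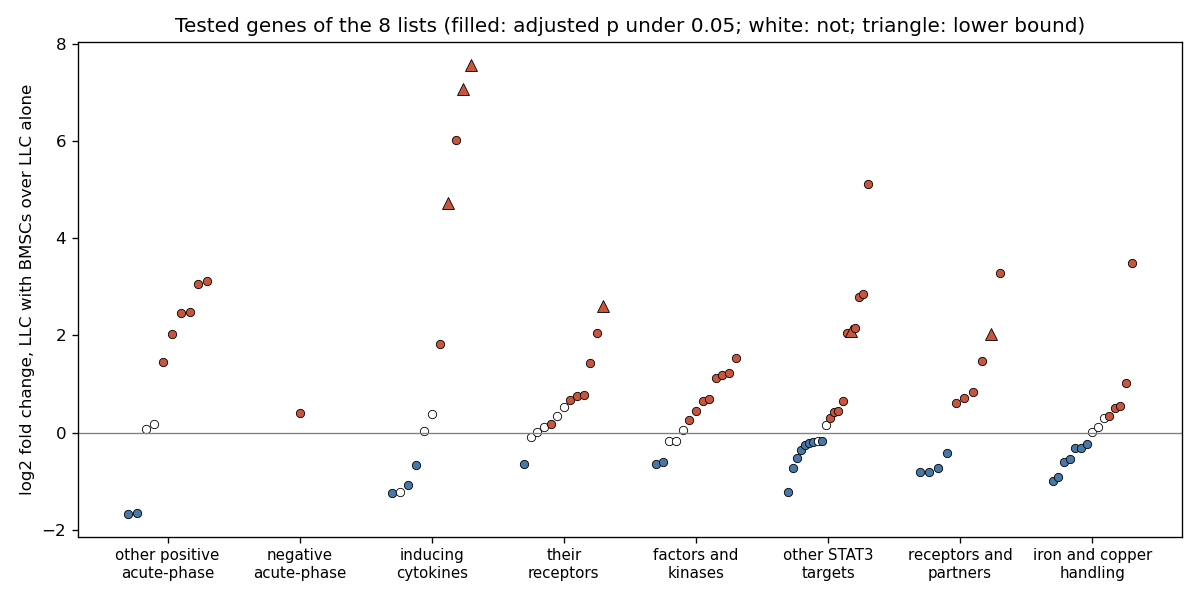
Log2 fold change of LLC with BMSCs over LLC alone for each tested gene of the 8 lists, with positive values higher with BMSCs. Filled points passed an edgeR adjusted p of 0.05, white points did not, and triangles are lower bounds for genes at or under 3 counts in each library of LLC alone. Positive acute-phase genes have a median of 1.73 and genes of iron and copper handling one of 0.00.

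A sorted tumour sample could hold other cells. Tested markers of neutrophils and mesenchymal stromal cells, and most of those of macrophages, were higher with BMSCs. No tested marker of hepatocytes or endothelium passed the test as higher. Among all tested genes 31.5% were higher and 31.3% lower. CPM summed over 10 of 11 neutrophil markers in the files were 0.479 to 0.810 in LLC alone and 23.2 to 26.2 in LLC with BMSCs, and S100a9 was the marker that reached 10 CPM. All 8 tested neutrophil markers rose, while Ly6g had 4, 3 and 1 counts in LLC alone and 3, 1 and 1 with BMSCs. Hp, itself a neutrophil granule gene, had a mean of 0.121 CPM in LLC alone and 10.6 CPM with BMSCs. Of 8 tested macrophage markers 7 rose and 1, Cd68, fell, and C1qa, C1qb and C1qc had at most 3 counts in any library. The 12 macrophage markers summed to 13.7 to 14.4 and to 26.6 to 27.2 CPM, with Ptprc at 0.03 and 0.45 FPKM and Adgre1 at 0 and 0.477 FPKM on average. All 10 tested of the 13 mesenchymal stromal markers rose. Thy1, Postn and Cxcl12 did not pass the filter on low counts. Thy1 had 0, 0 and 0 counts in LLC alone and 0, 2 and 1 with BMSCs. Postn had 1, 4 and 0 and then 4, 5 and 2, and Cxcl12 had 0 and then 12, 7 and 8. Col3a1 alone had a mean of 228 CPM in LLC alone and 546 CPM with BMSCs. The 13 summed to 366 to 431 and to 793 to 845 CPM, and Col1a1, Col1a2, Col3a1, Pdgfra, Pdgfrb, Dcn, Nt5e and Eng reached 10 CPM. For scale, Cp alone stood at 95.6 and 389 CPM. The part of such cells in the differences of the 9 genes was not tested. In bulk samples fewer cells of a type and less RNA per cell cannot be told apart.

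Hepatocyte markers were low in both groups, with 5 of 8 in the files, Alb at no more than 2 counts in any library and sums of 1.11 to 1.62 CPM in LLC alone and 0.764 to 0.919 CPM with BMSCs. Endothelial markers summed to at most 1.75 CPM and adipocyte markers to at most 0.0439 CPM in a library. Of the epithelial markers of the tumour line Krt8 was above 10 CPM in both groups, while Epcam and Krt7 were close to 0. Krt8 rose by 0.19 on the log2 scale (edgeR adjusted p = 0.0374). Krt18 rose by 2.91 from 2, 4 and 8 counts in LLC alone to 41, 37 and 37 counts with BMSCs (edgeR adjusted p = 0.000221). The libraries held 33476347 to 46189113 estimated fragments on genes, so that 3 counts are a small fraction of 1 CPM.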

How the data were processed

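RNA sequencing of sorted LLC cells was analysed in 6 libraries, which the sample labels divide into LLC alone (3) and LLC with BMSCs (3). The authors deposited, per gene and per transcript, an estimated count that is not normalized and need not be whole, a length in bases, and an FPKM value scaled by the authors to transcript length and library total. The submitters' processing notes name HISAT, StringTie, Cufflinks and GATK and the build mm8, without roles or versions. The strand used in counting and the program behind the estimated counts were not given in the sources used here. The study's methods describe paired reads of 100 bases on a BGISEQ-500, while the labels speak of Illumina protocols. A deposited table of the whole series holds the same FPKM values and was not used.

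Estimated counts were rounded and fitted with edgeR 4.0.16 in R 4.3.3 (TMM, default filter on low counts, quasi-likelihood test, two-sided, Benjamini-Hochberg adjustment over 13353 tested of 18182 listed genes, threshold 0.05). The size of a log2 fold change over the root of its F statistic gave the SE. CPM times the mean effective library size gave normalized counts. Log2 CPM used a prior count of 2. A group whose libraries all held at most 3 counts was given a bound against 3 counts per library. The 9 genes and all lists were chosen with earlier results of these data known, so no p is given for the 9 genes. Lists are described by counts and medians without a test of a list. The edgeR adjusted p of single list genes come from the fit over all tested genes. Most of these genes were picked by their values, so their p-values are no independent test. Named were the 9 genes, and from each list the 4 genes with the largest absolute log2 fold change among those past the threshold and at 1 FPKM or more in a group, with Stat3, Socs3, Il6st, Osmr, Il6 and the other Saa and Serpina3 genes whatever their values. Ptprc, Adgre1, Ly6g, Cd68, C1qa, C1qb, C1qc, Alb, Epcam, Krt7, Krt18, Hpx, Agt, Timp1, Cd14, Il11, Ctf1, Lif, Il11ra1, Il6ra, Cebpd, Cebpb, Nfkbiz, Myc, Slc22a17, Cd163, Lag3 and Fth1 were named after their values were seen. Lrp2, Thy1, Postn, Cxcl12, Fpr2, Ager, Scarb1, Steap2 and Steap3 were likewise named after their values were seen. For likeness to Cp, the 5 genes with the highest r were to be named. Some genes that these rules name are not reported here.

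Alternatives for scaling were DESeq2 1.42.0, plain library size and the upper quartile. The filter was dropped or raised to 10 counts in each library. The unit was changed to log2(FPKM + 1) or log2(FPKM + 0.1) and tested with limma 3.58.1. Further fits used the replicate number as a block, removal of a loess trend over gene length, summing of libraries that lie close together, and leaving out each library. The scripts were tested on simulated data. Promoters were read from a RefSeq table on GRCm38.p6, exon and residue numbers from GENCODE M21. Counting intervals and floors cover counting error only.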

Additional observations from a re-analysis of the deposited data

How the results depend on the processing

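The log2 fold changes of the 8 tested genes kept their direction under all 16 alternatives that gave a value: 110 of 121 values stayed within 1 SD of the reported one, and 11 moved by more. Values moved for Hp (3.08 and 5.51 by limma on log2(FPKM + 1) and log2(FPKM + 0.1), and 7.06 without LLC alone replicate 2), Fgl1 (-0.92 by limma on log2(FPKM + 1)), Saa3, Lcn2 and Cp (2.90, 2.42 and 1.91 with the length trend removed) and Steap4 (5.31 without LLC alone replicate 3, and 3.62 without replicate 1, which lay within 1 SD). Serpina3g, whose fitted value is no bound, gave 5.66, 5.0 and 5.67 without LLC alone replicate 1, 2 or 3. A filter of at least 10 counts in every library left 3 of the 9 genes higher, since Hp, Serpina3g and Steap4 no longer entered the test. Limma on either FPKM scale left 4 of the 9 higher, since Serpina3g and Steap4 gave no value there.

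In the lists, that filter gave 1 lower positive acute-phase gene and 1 higher cytokine. Limma on either FPKM scale gave 1 lower positive acute-phase gene and 2 higher receptors and partners. Without a filter, 2 negative acute-phase genes and 2 other Serpina3 genes were higher. Removal of the length trend gave 2 lower cytokine receptor genes. With libraries that lie close together summed, 1 other Serpina3 gene was higher, 4 STAT3 targets were lower and Rbp4 had an edgeR adjusted p of 0.128. Leaving out each library gave 0 to 1 higher negative acute-phase genes, 1 to 2 lower receptor genes (2 without LLC alone replicate 3) and 4 to 8 lower STAT3 targets. The causes were not tested. Across all genes, a replicate block gave 4161 higher and 4058 lower genes, against 4210 and 4183 without it, and 5 lower STAT3 targets. The labels give no pairing beyond a shared number, and deviations of same-numbered libraries correlated by 0.0762, -0.106 and 0.0572. The share of higher genes among all calls ranged from 47.4% to 52.3% over the alternatives. Genes at a few counts, such as Steap4 and Serpina3n, are limited by depth.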
